A study of Homo sapiens with 9 samples.

Results

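The promoter of HMGA2 (ENSG00000149948.14; chr12:65824460-65966291 in hg38, plus strand) was 1 of 20 promoters whose chromatin contacts were captured, and the contacts described here are those with the 2341 DpnII fragments of chromosome 12 that lie within 500 kb of its transcription start site, of 47189 such fragments around all 20 promoters. All 9 libraries came from HCT-116 cells, an established human colorectal carcinoma line, of the MED14-dTAG genotype, in which the Mediator subunit MED14 carries a tag that lets the dTAG ligand direct it to degradation. There were 3 libraries for each treatment: dTAG ligand over 2 h (dTAG), dTAG ligand over 2 h together with the BET inhibitor I-BET over 90 min (dTAG+I-BET), and the solvent DMSO alone. The tag is also present in the DMSO cells, I-BET was not given without dTAG ligand in these libraries, and Capture-C does not measure the amount of MED14. The 20 genes had been selected by the study as active in HCT-116 cells, bound by Mediator, linked to a super-enhancer and lower in expression after Mediator depletion, so they are not a random sample of promoters.

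HMGA2 encodes an architectural chromatin protein whose AT-hooks bind the minor groove of AT-rich DNA; it is abundant in embryonic tissues, scarce in most adult tissues and expressed again in many tumors. Mediator is a large coactivator complex that bridges transcription factors at enhancers and RNA polymerase II at promoters, and MED14 is its architectural backbone. BET proteins bind acetylated histones, from which I-BET displaces them. In Capture-C, crosslinked chromatin is cut with DpnII, which recognizes GATC, neighboring ends are ligated, and ligation products that hold a chosen promoter are enriched with oligonucleotides, so that each fragment receives a number of interactions with that promoter, which normally declines with distance on both sides.

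The values compared are signals per kb, that is, interactions after a scaling by the authors that gives the libraries similar totals on the viewpoint's chromosome; they are shares of a library's contacts and not absolute numbers, so a gain in one place must be balanced by a loss elsewhere on the chromosome. The HMGA2 viewpoint held 23702 to 39992 interactions on chromosome 12 in dTAG libraries, 23634 to 25139 in dTAG+I-BET libraries and 19592 to 43047 in DMSO libraries. In 10-kb bins around HMGA2, dTAG replicate 3 and DMSO replicate 3 stood apart from their own groups: chi-square comparisons of their interactions with the other libraries of the group gave 3.59 and 3.89 per bin for dTAG and 4.15 and 4.43 for DMSO, against 1.42 and 1.36 between replicates 1 and 2. Other chromosomes took 32.2, 33.9 and 39% of interactions in dTAG libraries and 36.3, 36.1 and 37% in DMSO libraries. At every other promoter too, dTAG replicate 3 had the highest such share of the dTAG libraries. The 3 dTAG+I-BET libraries differed by 0.967 to 1.15 per bin at HMGA2, near sampling noise, and by 1.33 to 1.36 over the bins of all 20 promoters. They were kept as 3 libraries, although agreement this close does not tell separate samples from splits of 1 sample. Values without both dTAG replicate 3 and DMSO replicate 3 are given beside the side balance, the 10-kb bins and the results they changed. Tests in that setting pooled the spread over promoters and gave very small p-values. Results that it adds are therefore not read as further evidence.

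Most of the 10-kb bins in which contacts of the HMGA2 promoter rose with an adjusted p under 0.05 overlapped the gene, chiefly intron 3 (chr12:65838570-65951382). From that intron 5 DpnII fragments are shown because these contacts fall on them. Fragments A to D had the highest mean signal per kb over the 9 libraries in 10-kb bins that differed from DMSO (limma, adjusted p under 0.05, which is what a call means throughout), among fragments of 100 to 300 bases; fragment E, picked after its values were seen, had the highest signal in the bin with the largest log2 difference for dTAG, 120 to 130 kb downstream. Sequences are from hg38, plus strand, with the flanking DpnII sites, which form the ligated ends, in capitals.
Fragment A: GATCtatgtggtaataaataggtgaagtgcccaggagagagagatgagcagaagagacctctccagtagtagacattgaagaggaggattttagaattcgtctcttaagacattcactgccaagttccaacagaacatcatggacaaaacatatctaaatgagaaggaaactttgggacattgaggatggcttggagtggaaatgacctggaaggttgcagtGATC
Fragment B: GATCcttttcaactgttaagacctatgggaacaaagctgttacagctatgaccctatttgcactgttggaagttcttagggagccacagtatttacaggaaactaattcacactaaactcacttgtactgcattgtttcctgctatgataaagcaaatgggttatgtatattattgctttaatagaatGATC
Fragment C: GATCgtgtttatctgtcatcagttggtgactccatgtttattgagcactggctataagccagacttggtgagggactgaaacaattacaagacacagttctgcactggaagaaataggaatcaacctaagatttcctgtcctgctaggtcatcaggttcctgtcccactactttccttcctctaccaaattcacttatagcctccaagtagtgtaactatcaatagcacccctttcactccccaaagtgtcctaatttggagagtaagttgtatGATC
Fragment D: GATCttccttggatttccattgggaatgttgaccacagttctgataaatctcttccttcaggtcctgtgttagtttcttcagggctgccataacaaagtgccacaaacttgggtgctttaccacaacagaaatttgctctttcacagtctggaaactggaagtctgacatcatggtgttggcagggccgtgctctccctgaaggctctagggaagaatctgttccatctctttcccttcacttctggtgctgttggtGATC
Fragment E: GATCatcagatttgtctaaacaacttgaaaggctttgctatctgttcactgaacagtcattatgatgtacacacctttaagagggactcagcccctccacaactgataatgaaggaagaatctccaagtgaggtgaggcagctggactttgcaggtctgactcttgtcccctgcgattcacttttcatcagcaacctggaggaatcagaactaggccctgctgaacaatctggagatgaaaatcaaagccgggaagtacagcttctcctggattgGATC

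Fragment A (chr12:65852815-65853040) lay 28.5 kb from the start site, fragment B (chr12:65850257-65850448) 25.9 kb, fragment C (chr12:65859010-65859287) 34.7 kb and fragment D (chr12:65856499-65856759) 32.2 kb; A, C and D also lie under HMGA2-AS1, an antisense noncoding transcript. Fragment C held 4612, 2914 and 3781 per kb in dTAG libraries, 3645, 2829.9 and 3267 in dTAG+I-BET libraries and 1083, 1146 and 1769.7 in DMSO libraries, and both treated groups lay above DMSO without overlap. Fragment A held 2211, 4156 and 3062 per kb in dTAG libraries, 3994, 4427 and 5335 in dTAG+I-BET libraries and 2012, 1116 and 3709 in DMSO libraries, so that only the dTAG+I-BET libraries lay wholly above DMSO. Fragments B and D showed the same pattern of overlap as A.

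Farther into the gene, fragment E (chr12:65947690-65947968, 123 kb) held 1037, 1056 and 1449 per kb in dTAG libraries, 1537, 2374 and 1479.7 in dTAG+I-BET libraries and 719, 245 and 543 in DMSO libraries. Every treated library lay above every DMSO library. Single fragments rest on few interactions, and no test was made on them.

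In DMSO cells the HMGA2 promoter contacted the sequence upstream of it far more than the sequence on the side of its own gene, and this imbalance was smaller in dTAG and dTAG+I-BET cells. From 10 to 500 kb, the upstream side held 677, 682 and 539.7 per kb in dTAG libraries, 667, 675 and 685 in dTAG+I-BET libraries and 838, 795 and 729 in DMSO libraries. The downstream side held 401, 393 and 371 per kb in dTAG libraries, 423, 427 and 432 in dTAG+I-BET libraries and 221, 222 and 298 in DMSO libraries. On either side, both treated groups were separate from DMSO, upstream below it and downstream above it.

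The ratio of upstream to downstream signal was 1.69, 1.73 and 1.45 in dTAG libraries, 1.58, 1.58 and 1.58 in dTAG+I-BET libraries and 3.8, 3.58 and 2.45 in DMSO libraries. Every treated library lay below every DMSO library, and DMSO replicate 3 was the DMSO library nearest to the treated ones. The upstream share of the signal from 10 to 500 kb averaged 61.8% ± 2.26 in dTAG cells, 61.3% ± 0.0479 in dTAG+I-BET cells and 76.1% ± 4.45 in DMSO cells (SD, n = 3 each). The side balance, the log2 of that ratio, differed from DMSO by -0.99 in dTAG cells (SE 0.15, 95% interval -1.32 to -0.66; limma over the 20 promoters, adjusted p 0.000589) and by -1.03 in dTAG+I-BET cells (SE 0.15, 95% interval -1.36 to -0.69; adjusted p 0.000673). A lower side balance was called at 50% of the 20 promoters with dTAG and at 45% with dTAG+I-BET. An exact permutation test of the libraries, two-sided, gave p = 0.1 for each of these differences, the smallest value that 3 against 3 allow. Both contrasts use the same DMSO libraries and are therefore not independent. Without dTAG replicate 3 and DMSO replicate 3 the differences were -1.11 and -1.22.

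Of the 6 regions compared, the gene body had the largest log2 difference from DMSO, and the window at the same distances upstream showed no call. From 10 kb downstream of the start to the end of the gene (chr12:65834461-65966291), signal was 937, 902 and 783 per kb in dTAG libraries, 996, 1009 and 1043 in dTAG+I-BET libraries and 471, 467 and 581 in DMSO libraries. The 3 groups did not overlap, with DMSO lowest and dTAG+I-BET highest. The log2 difference from DMSO was 0.79 (SE 0.12, adjusted p 0.000409) with dTAG and 1.01 (SE 0.12, adjusted p 1.77e-05) with dTAG+I-BET. In the mirrored window upstream (chr12:65682630-65814460), signal was 1208, 1178 and 837 per kb in dTAG libraries, 1271, 1254 and 1280.0 in dTAG+I-BET libraries and 1365, 1271 and 1119 in DMSO libraries. Here both treated groups overlapped DMSO, and dTAG replicate 3 was lowest. The log2 difference was -0.23 with dTAG (95% interval -0.52 to 0.06; adjusted p 0.393) and 0.02 with dTAG+I-BET (95% interval -0.27 to 0.31; adjusted p 0.989).

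**Figure D1:**
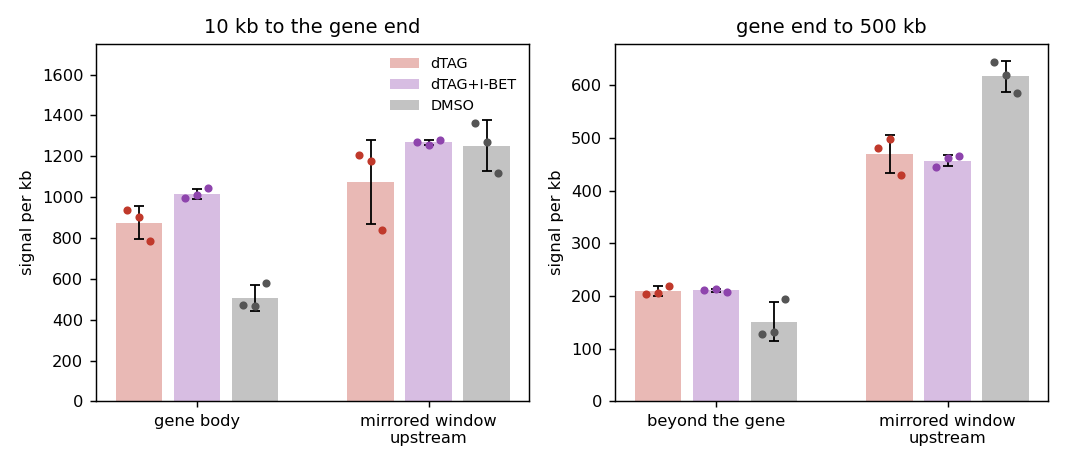
Signal per kb (y axis) of the HMGA2 promoter with the gene body and the sequence beyond the gene, each beside the window at the same distances upstream (x axis). Points are libraries, bars are means and error bars are SD over 3 libraries; gene body bars are taller in dTAG and dTAG+I-BET than in DMSO, and the bars of the far upstream window are shorter.

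Beyond the gene, treated cells had more signal than DMSO cells downstream and less at the mirrored distances upstream. From the gene end to 500 kb downstream, signal was 203, 206 and 219.9 per kb in dTAG libraries, 211, 213 and 207 in dTAG+I-BET libraries and 129, 132 and 194 in DMSO libraries. Both treated groups lay above DMSO, although DMSO replicate 3 came close to them. The log2 difference from DMSO was 0.49 (SE 0.14, adjusted p 0.0411) with dTAG and 0.50 (SE 0.14, adjusted p 0.0239) with dTAG+I-BET. In its mirrored window, signal was 481, 499 and 430.1 per kb in dTAG libraries, 445, 462 and 466 in dTAG+I-BET libraries and 645, 620.2 and 586 in DMSO libraries, and all treated libraries lay below all DMSO libraries. The log2 difference there was -0.39 (SE 0.11, adjusted p 0.0386) with dTAG and -0.43 (SE 0.11, adjusted p 0.0184) with dTAG+I-BET. The upstream side as a whole was not called, at -0.32 (SE 0.12, adjusted p 0.163) with dTAG and -0.22 (SE 0.12, adjusted p 0.289) with dTAG+I-BET, whereas the downstream side was called higher, at 0.67 (SE 0.12, adjusted p 0.0022) and 0.80 (SE 0.12, adjusted p 0.000259). In all, 4 of the 6 regions of HMGA2 were called in each contrast with DMSO, of regions around all 20 promoters of which 6.25% were called with dTAG and 16.2% with dTAG+I-BET. The downstream side holds the gene body and the sequence beyond it, so these calls are not separate results. Both shares include HMGA2 itself. The gene body and the downstream side were called under every alternative run. Calls farther out were lost as libraries were left out, also libraries outside the contrast. The sequence beyond the gene was not called for dTAG without dTAG replicate 1 or 2, dTAG+I-BET replicate 1, 2 or 3 or DMSO replicate 1 or 2 (0.39 to 0.51) or for dTAG+I-BET without dTAG+I-BET replicate 1, 2 or 3 or DMSO replicate 1 or 2 (0.39 to 0.51). For dTAG its difference was still 0.49 without a dTAG+I-BET library. Its mirrored window was not called for dTAG without dTAG replicate 1, dTAG+I-BET replicate 1, 2 or 3 or DMSO replicate 1 or 2 (-0.41 to -0.36) or for dTAG+I-BET without dTAG+I-BET replicate 1, 2 or 3 or DMSO replicate 1 or 2 (-0.44 to -0.40). The whole upstream side was called lower without dTAG replicate 3 (-0.21) for dTAG, and likewise for dTAG+I-BET without dTAG replicate 3 (-0.22). Without dTAG replicate 3 and DMSO replicate 3 the upstream side was called lower in both contrasts (-0.27 and -0.27), and so, for dTAG, was the mirrored window of the gene body (-0.14).

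The distance bands that were called lay within the first 200 kb downstream and from 100 to 400 kb upstream. This does not bound the changes, because with dTAG the other bands had the same sign as the called ones on their side. In the band 10 to 50 kb upstream that sign depended on dTAG replicate 3. At 10 to 50 kb downstream, signal was 1708, 1611 and 1291 per kb in dTAG libraries, 1746, 1818 and 1863 in dTAG+I-BET libraries and 1031, 988 and 1108 in DMSO libraries. At 50 to 100 kb downstream it was 719, 711 and 610.2 per kb in dTAG libraries, 743, 752 and 816 in dTAG+I-BET libraries and 284, 307 and 446 in DMSO libraries. At 100 to 200 kb downstream, which holds the end of the gene and sequence past it, it was 409.7, 414 and 459 per kb in dTAG libraries, 479, 462 and 457 in dTAG+I-BET libraries and 168, 167 and 274 in DMSO libraries. In these 3 bands every treated library exceeded every DMSO library, and the log2 difference was larger in the farther bands, a trend that was not tested. The log2 differences with dTAG were 0.55 (SE 0.12, adjusted p 0.0138), 1.00 (SE 0.15, adjusted p 0.00153) and 1.11 (SE 0.16, adjusted p 0.00153). With dTAG+I-BET they were 0.80 (SE 0.12, adjusted p 0.000659), 1.18 (SE 0.15, adjusted p 0.000505) and 1.24 (SE 0.16, adjusted p 0.000505).

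Past 200 kb downstream no band was called. At 200 to 300 kb the values were 302, 303 and 321 per kb in dTAG libraries, 332, 339 and 320.0 in dTAG+I-BET libraries and 198, 208 and 332 in DMSO libraries, and DMSO replicate 3 lay among the treated libraries. At 300 to 400 kb they were 145, 141 and 146 per kb in dTAG libraries, 131, 124 and 138 in dTAG+I-BET libraries and 117, 110.3 and 121 in DMSO libraries, with both treated groups above DMSO. At 400 to 500 kb they were 63.5, 69.9 and 72.3 per kb in dTAG libraries, 58.7, 66.4 and 50.1 in dTAG+I-BET libraries and 43.4, 55.1 and 66.2 in DMSO libraries, and the groups overlapped. The log2 differences of these 3 bands from DMSO were 0.36, 0.31 and 0.33 with dTAG (adjusted p 0.267, 0.0988 and 0.272) and 0.46, 0.17 and 0.10 with dTAG+I-BET (adjusted p 0.0902, 0.318 and 0.796).

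Upstream, the 2 bands nearest the promoter, which cover RPSAP52, a transcribed pseudogene that overlaps the start of HMGA2, showed no call. At 10 to 50 kb upstream, signal was 1668, 1606 and 1005 per kb in dTAG libraries, 1826, 1775 and 1849.7 in dTAG+I-BET libraries and 1738, 1584 and 1456 in DMSO libraries. At 50 to 100 kb upstream it was 1085, 1055 and 767 per kb in dTAG libraries, 1149, 1138 and 1113 in dTAG+I-BET libraries and 1252, 1178 and 972 in DMSO libraries. The dTAG libraries overlapped DMSO in both bands, with dTAG replicate 3 far below the other dTAG libraries, while the dTAG+I-BET libraries lay above DMSO in the nearer band and within its range in the other. The log2 differences from DMSO in these 2 bands were -0.19 and -0.24 with dTAG (adjusted p 0.527 and 0.415) and 0.19 and 0.01 with dTAG+I-BET (adjusted p 0.565 and 0.989).

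At 100 to 200 kb upstream, signal was 803, 795 and 695 per kb in dTAG libraries, 729.9, 758 and 781 in dTAG+I-BET libraries and 1079, 987 and 948 in DMSO libraries. At 200 to 300 kb upstream it was 653, 647 and 585 per kb in dTAG libraries, 594, 595 and 630.0 in dTAG+I-BET libraries and 782, 810.3 and 760.5 in DMSO libraries. At 300 to 400 kb upstream it was 385, 414 and 346 per kb in dTAG libraries, 365, 396 and 373 in dTAG+I-BET libraries and 561, 549 and 492 in DMSO libraries. Every treated library lay below every DMSO library in these 3 bands. The log2 differences with dTAG were -0.40 (SE 0.10, adjusted p 0.0492), -0.32 (SE 0.09, adjusted p 0.0926) and -0.48 (SE 0.10, adjusted p 0.0146), so that the middle band missed the threshold. With dTAG+I-BET they were -0.41 (SE 0.10, adjusted p 0.0281), -0.37 (SE 0.09, adjusted p 0.0303) and -0.49 (SE 0.10, adjusted p 0.011). At 400 to 500 kb upstream the values were 267, 315 and 233 per kb in dTAG libraries, 274, 279 and 275 in dTAG+I-BET libraries and 365, 328 and 305 in DMSO libraries, with no call in either contrast (log2 -0.30 and -0.27). The calls were 5 of 12 bands with dTAG and 6 of 12 with dTAG+I-BET, against 4.17% and 7.5% of the bands of all 20 promoters. 

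The downstream bands at 50 to 100 and 100 to 200 kb were called in both contrasts whichever library was left out, and so was the band at 10 to 50 kb for dTAG+I-BET. For dTAG the band at 10 to 50 kb downstream was not called without dTAG replicate 1 or 2 or DMSO replicate 1 or 2 (0.47 to 0.54), the band at 100 to 200 kb upstream without dTAG replicate 1 or 2, dTAG+I-BET replicate 1, 2 or 3 or DMSO replicate 1 or 2 (-0.43 to -0.34), and the band at 300 to 400 kb upstream without dTAG replicate 1 or DMSO replicate 1 or 2 (-0.49 to -0.45). For dTAG+I-BET the upstream bands were not called at 100 to 200 kb without dTAG+I-BET replicate 1, 2 or 3 or DMSO replicate 1 or 2 (-0.43 to -0.36), at 200 to 300 kb without dTAG+I-BET replicate 1, 2 or 3 or DMSO replicate 1 or 2 (-0.40 to -0.35) and at 300 to 400 kb without dTAG+I-BET replicate 1 or 3 or DMSO replicate 1 or 2 (-0.49 to -0.46). Calls were added, on the other hand, at 200 to 300 kb downstream without DMSO replicate 3 (0.60) for dTAG and without DMSO replicate 3 (0.70) for dTAG+I-BET. Further calls were added without dTAG replicate 3, at 200 to 300 kb upstream (-0.27) and 300 to 400 kb downstream (0.30) for dTAG and at 400 to 500 kb upstream (-0.27) for dTAG+I-BET. Without both replicates numbered 3, 11 of the 12 bands were called for dTAG, with very small p-values that rest on a spread pooled over promoters. The additions were the upstream bands at 50 to 100 (-0.18), 200 to 300 (-0.29) and 400 to 500 kb (-0.26) and the downstream bands at 200 to 300 (0.57), 300 to 400 (0.33) and 400 to 500 kb (0.44). For dTAG+I-BET the same setting added the downstream bands at 200 to 300 (0.70) and 300 to 400 kb (0.20) and the upstream band at 400 to 500 kb (-0.33).

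Comparing the 2 sides at equal distances, the upstream 10-kb bin had the higher group mean at 46 of 49 distances in dTAG cells, at 47 in dTAG+I-BET cells and at 48 in DMSO cells, so the direction of the imbalance was kept almost everywhere. The size of the imbalance was smaller with treatment. The median of the upstream over downstream ratios was 2.14 in dTAG cells, 2.02 in dTAG+I-BET cells and 4.34 in DMSO cells. Between 100 and 200 kb, where the gene ends, the median ratio was 1.79 in dTAG cells, 1.59 in dTAG+I-BET cells and 4.99 in DMSO cells. Between 10 and 50 kb it was 0.976 in dTAG cells, 1.02 in dTAG+I-BET cells and 1.8 in DMSO cells, so that both sides held nearly equal signal in treated cells.

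Of the 49 downstream 10-kb bins, 14 were called higher with dTAG and 20 with dTAG+I-BET, and none was called lower. Over the bins of all 20 promoters 1.12% and 3.47% were called higher. Of the 49 upstream bins, 1 was called lower with dTAG and 11 with dTAG+I-BET, against 0.357% and 1.43% over all promoters, and none was called higher. Beneath the calls the sides were nearly uniform in sign with dTAG: all 49 upstream bins had a negative log2 difference from DMSO (median -0.32) and 45 of the 49 downstream bins a positive one (median 0.51). Near the promoter the upstream sign rested on dTAG replicate 3. The bin 20 to 30 kb upstream held 1542, 1512 and 895 per kb in dTAG libraries and 1545, 1450 and 1305 in DMSO libraries. Without dTAG replicate 3 the band 10 to 50 kb upstream was 0.0431. With dTAG+I-BET, 41 upstream bins were negative (median -0.29) and 42 downstream bins positive (median 0.50). At the other 19 promoters, 713 of 931 upstream bins were negative with dTAG (median -0.16) and 546 with dTAG+I-BET (median -0.0429). Their downstream bins were positive in 517 of 931 with dTAG (median 0.0385) and in 588 with dTAG+I-BET (median 0.11). Over all bins of the 20 promoters the median was -0.07 with dTAG and 0.01 with dTAG+I-BET.

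**Figure D2:**
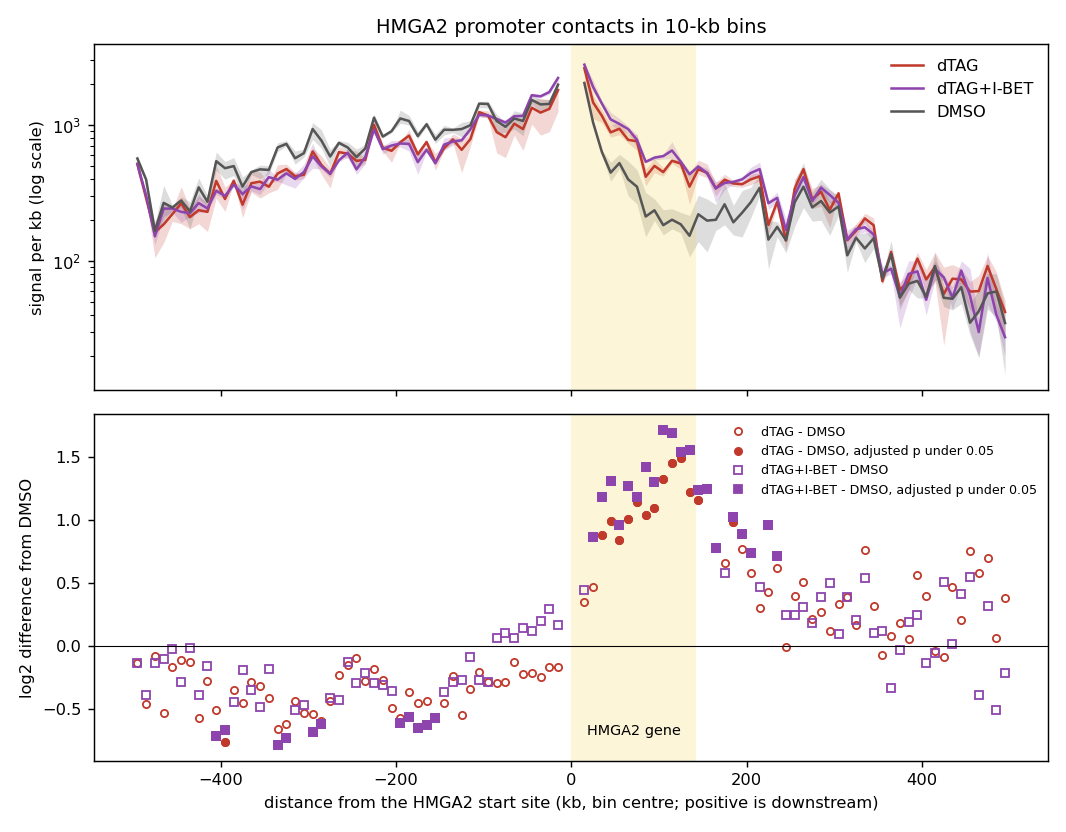
Signal per kb (upper panel, log scale) and log2 difference from DMSO (lower panel) in 10-kb bins by distance from the HMGA2 start site. Lines are means and bands the range of 3 libraries, filled symbols have an adjusted p under 0.05 and the yellow area is the HMGA2 gene; the treated lines run above DMSO through the gene and past its end to 240 kb downstream, and below it over most of the upstream side.

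Bins in which the groups did not overlap numbered 26 of 49 downstream with dTAG above DMSO and 26 of 49 upstream with dTAG below it, against 6.28% and 10.1% of all 1960 bins. With dTAG+I-BET the numbers were 23 downstream above DMSO and 28 upstream below it, against 15.1% and 11.2% of all bins. In the other direction, 2 upstream bins lay wholly above DMSO and 1 downstream bin wholly below it with dTAG+I-BET, and none did with dTAG. With dTAG, the 5 largest called increases were the bins starting 120, 110, 100, 150 and 130 kb downstream, with log2 differences of 1.49, 1.45, 1.32, 1.25 and 1.22 (adjusted p 4.05e-05, 4.05e-05, 0.000221, 0.00438 and 0.00438). All but the bin at 150 kb overlap the gene.

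With dTAG+I-BET, the 5 largest called increases were the bins starting 100, 110, 130, 120 and 80 kb downstream, all of them within the gene, with log2 differences of 1.71, 1.69, 1.55, 1.54 and 1.42 (adjusted p 5.43e-06, 5.43e-06, 0.00035, 8.35e-06 and 0.000514). The bin 100 to 110 kb downstream held 486, 422 and 448 per kb in dTAG libraries, 564, 603 and 609.5 in dTAG+I-BET libraries and 156, 157 and 239 in DMSO libraries. The bin 110 to 120 kb downstream held 562, 558 and 522 per kb in dTAG libraries, 757, 567 and 629.6 in dTAG+I-BET libraries and 190.0, 172 and 243 in DMSO libraries. In both bins the lowest dTAG+I-BET library lay above the highest dTAG library, and every treated library lay well above every DMSO library. The 5 largest increases of each contrast stayed called whichever library was left out.

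The called decreases were all upstream, from 150 to 410 kb from the start. The only one with dTAG was the bin 390 to 400 kb upstream, in MSRB3, which encodes a methionine sulfoxide reductase; it held 277, 351 and 232 per kb in dTAG libraries, 288, 309.6 and 309 in dTAG+I-BET libraries and 541, 506 and 401 in DMSO libraries. The treated libraries lay below the DMSO libraries, with log2 differences of -0.76 (SE 0.18, adjusted p 0.0306) and -0.66 (SE 0.18, adjusted p 0.034). The largest decrease with dTAG+I-BET was 330 to 340 kb upstream, where MSRB3 and its antisense transcript MSRB3-AS1 overlap, with 397, 386 and 409 per kb in dTAG+I-BET libraries and 741, 639 and 676 in DMSO libraries (log2 -0.78, adjusted p 0.00948). Other called decreases with dTAG+I-BET were 320 to 330 kb (-0.73), 400 to 410 kb (-0.71) and 290 to 300 kb (-0.68) upstream, with adjusted p of 0.0103, 0.033 and 0.028. The remaining 6 were the 5 adjoining bins from 150 to 200 kb upstream, with log2 differences from -0.65 to -0.56 (adjusted p 0.0158 to 0.0434), and the bin 280 to 290 kb upstream, at -0.61 (adjusted p 0.034). Calls were lost as libraries were left out: the bin 390 to 400 kb upstream was not called for dTAG without dTAG replicate 1, dTAG+I-BET replicate 1, 2 or 3 or DMSO replicate 1 or 2 (-0.76 to -0.67) or for dTAG+I-BET without dTAG+I-BET replicate 1, 2 or 3 or DMSO replicate 1 or 2 (-0.68 to -0.58). The bin 330 to 340 kb upstream was not called without dTAG+I-BET replicate 1 or 2 or DMSO replicate 1 (-0.78 to -0.72), that at 320 to 330 kb without dTAG+I-BET replicate 1 or DMSO replicate 1 (-0.69 to -0.59), that at 400 to 410 kb without dTAG+I-BET replicate 1, 2 or 3 or DMSO replicate 1 or 2 (-0.74 to -0.59) and that at 290 to 300 kb without dTAG+I-BET replicate 1 or 2 or DMSO replicate 1 or 2 (-0.64 to -0.55). Without dTAG replicate 3 and DMSO replicate 3, 39 bins were called with dTAG and 50 with dTAG+I-BET, instead of 15 and 31.

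The gain in the gene was spread over its length. Intron 3, which makes up most of the gene, holds 241 DpnII fragments, of which 229 had a higher mean with dTAG than with DMSO and 234 a higher mean with dTAG+I-BET. All 3 libraries lay above DMSO in 109 of them with dTAG and in 139 with dTAG+I-BET, and below it in none. Over the whole downstream side this held for 186 and 236 of 1113 fragments. From 10 to 500 kb around all 20 promoters it held for 4.33% of fragments with dTAG and 5.88% with dTAG+I-BET. The 10 fragments with the largest gains made up 12.3% of the summed gains with dTAG and 13.5% with dTAG+I-BET. On the upstream side, by comparison, 836 of 1196 fragments had a lower mean with dTAG than with DMSO. There, all 3 libraries lay below DMSO in 163 with dTAG and 173 with dTAG+I-BET, and above it in 19 and 30. Fragments wholly below DMSO were counted at each promoter, but their share around all 20 promoters was not summarized. These upstream counts therefore have no background beside them and are not read as a result. Fragments had a median length of 262 bases on the upstream side and 313 bases on the downstream side.

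Within the gene, intron 3 averaged 864 ± 96.6 per kb in dTAG cells, 1016 ± 32.3 in dTAG+I-BET cells and 489.7 ± 65.5 in DMSO cells (SD, n = 3 each). Intron 4 averaged 422 ± 90.9, 534 ± 60.5 and 184 ± 54 per kb in dTAG, dTAG+I-BET and DMSO cells, and exon 5, the last exon, 369 ± 138, 336 ± 10.6 and 177 ± 55.8. Every treated library lay above every DMSO library in all 3 stretches. Under HMGA2-AS1 (chr12:65851340-65882167) signal was 1106, 1074 and 916 per kb in dTAG libraries, 1230.4, 1254 and 1264 in dTAG+I-BET libraries and 564, 529 and 631 in DMSO libraries. RPSAP52, on the opposite side of the promoter, held 1499, 1463 and 927 per kb beyond 10 kb in dTAG libraries, 1652, 1615 and 1633 in dTAG+I-BET libraries and 1593, 1456 and 1289 in DMSO libraries, with dTAG overlapping DMSO. The upstream noncoding gene LINC02454 averaged 785 ± 29.5 per kb in dTAG cells, 760.2 ± 24 in dTAG+I-BET cells and 927 ± 31 in DMSO cells, and MSRB3-AS1 574 ± 40, 555 ± 20.8 and 753 ± 24.1; treated libraries were below DMSO in both. These stretches were summed as a description and were not tested across features.

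SMC1A is a core subunit of cohesin, the ring complex that extrudes chromatin loops. In SMC1A profiles of the same cells the study listed sites at which SMC1A was lower or higher after dTAG treatment; the list comes from another assay and was chosen for its change with dTAG. Windows of 5 kb on each side of the sites near HMGA2 were compared here. Of 10 merged windows, 7 upstream windows and 1 inside the gene held sites with less SMC1A, and 2 downstream windows sites with more. All 7 upstream windows had lower contact signal in every treated library than in every DMSO library, and the window inside the gene had higher signal in every treated library. Of the 121 windows around all 20 promoters, 21.5% lay wholly below DMSO with dTAG and 30.6% with dTAG+I-BET, and 4.96% and 10.7% wholly above it. Of the 49 upstream 10-kb bins of HMGA2, 26 and 28 lay wholly below DMSO. The window 327 kb upstream held 515, 520.0 and 412 per kb in dTAG libraries, 357, 455 and 485 in dTAG+I-BET libraries and 697, 716 and 711 in DMSO libraries. It was called lower at -0.56 (SE 0.15, adjusted p 0.0264) with dTAG and -0.72 (SE 0.15, adjusted p 0.00707) with dTAG+I-BET. The window 193 kb upstream, in MSRB3-AS1, was the other one called lower with dTAG, with 727, 701 and 671 per kb in dTAG libraries, 606, 716 and 658 in dTAG+I-BET libraries and 1067, 942 and 948 in DMSO libraries. Its log2 differences were -0.49 (SE 0.13, adjusted p 0.0264) and -0.58 (SE 0.13, adjusted p 0.0091).

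With dTAG+I-BET 3 further upstream windows were called lower, at 389, 289 and 175 kb, with log2 differences of -0.55 (SE 0.17, adjusted p 0.0444), -0.58 (SE 0.15, adjusted p 0.0214) and -0.68 (SE 0.15, adjusted p 0.00875); with dTAG they were -0.52, -0.47 and -0.44 (adjusted p 0.0589, 0.0589 and 0.07). The windows 314 and 102 kb upstream were not called, at -0.44 and -0.23 with dTAG and -0.46 and -0.28 with dTAG+I-BET. The window with less SMC1A inside the gene, 12.1 kb from the start, held 3341, 3161 and 2921 per kb in dTAG libraries, 3009, 3076 and 3396 in dTAG+I-BET libraries and 2539, 2454 and 2506 in DMSO libraries. Its log2 difference was positive, 0.33 (SE 0.13, adjusted p 0.103) and 0.34 (SE 0.13, adjusted p 0.091), and it was not called.

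The window with more SMC1A 54.3 kb downstream, in intron 3 under HMGA2-AS1, held 936, 808 and 793 per kb in dTAG libraries, 821, 933 and 978 in dTAG+I-BET libraries and 443, 455 and 540.2 in DMSO libraries. Treated and DMSO libraries did not overlap, and it was called higher at 0.82 (SE 0.14, adjusted p 0.00495) with dTAG and 0.93 (SE 0.14, adjusted p 0.000668) with dTAG+I-BET. The 10-kb bins starting 40, 50 and 60 kb downstream, which hold and adjoin it, were also called higher in both contrasts. Their log2 differences were 0.99, 0.84 and 1.01 with dTAG and 1.30, 0.96 and 1.27 with dTAG+I-BET, so the window did not exceed the sequence around it. The other window with more SMC1A, 306 kb downstream at the start of LLPH, held 265, 288 and 251 per kb in dTAG libraries, 238, 217 and 209 in dTAG+I-BET libraries and 234, 206 and 169 in DMSO libraries. There the dTAG libraries lay above DMSO while dTAG+I-BET overlapped it, and it was not called (log2 0.41 and 0.14, adjusted p 0.0776 and 0.578). The median over the 10 windows was -0.44 with dTAG and -0.50 with dTAG+I-BET, beside -0.18 and -0.14 over the 121 windows of all promoters. Of the 10 windows, 3 were called with dTAG and 6 with dTAG+I-BET, against 10.7% and 13.2% of all windows. The window in intron 3 was called whichever library was left out. The window 327 kb upstream was not called for dTAG without DMSO replicate 1 or 2 (-0.57 to -0.55), or without both replicates numbered 3 (-0.45), or for dTAG+I-BET without dTAG+I-BET replicate 1 (-0.59), and the window 193 kb upstream was not called for dTAG without dTAG replicate 2 or DMSO replicate 1 or 2 (-0.52 to -0.43) or for dTAG+I-BET without dTAG+I-BET replicate 1 (-0.52). For dTAG+I-BET the windows 389, 289 and 175 kb upstream were not called without dTAG replicate 1, dTAG+I-BET replicate 1, 2 or 3 or DMSO replicate 1 or 2 (-0.58 to -0.46), without dTAG+I-BET replicate 1 or 2 or DMSO replicate 1 (-0.55 to -0.43) and without dTAG+I-BET replicate 1 (-0.55), in that order. Calls were added for dTAG at 389 kb without dTAG replicate 2 or DMSO replicate 3 (-0.68 to -0.63) and at 289 kb without DMSO replicate 3 (-0.59). Without dTAG replicate 3, the window inside the gene near its start (both contrasts, 0.38 and 0.34) and, for dTAG, at LLPH (0.46) were called higher, and those 314 and 102 kb upstream were called lower for dTAG+I-BET (-0.46 and -0.28). With DMSO replicate 3 left out as well, calls were added for dTAG at 389 kb (-0.53) and 289 kb (-0.58) upstream and in the window inside the gene near its start (0.38). For dTAG+I-BET they were added at 314 kb (-0.50) and 102 kb (-0.32) upstream and in that same window (0.34).

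**Figure D3:**
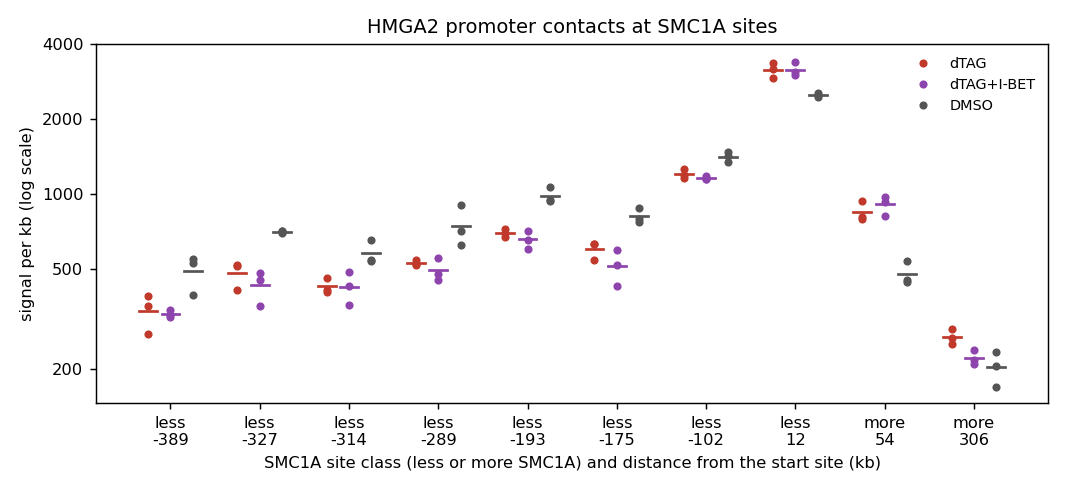
Signal per kb of the HMGA2 promoter (y axis, log scale) at 10 windows around SMC1A sites, ordered by distance from the start site in kb and marked by whether the site had less or more SMC1A (x axis). Points are libraries and lines group means; treated points lie below DMSO in the 7 upstream windows and above it 12 and 54 kb downstream.

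Contacts with the promoters of neighboring genes were not called at HMGA2. The 5 protein-coding genes of the annotation that start from 10 to 500 kb away are all downstream, and 1.15% of 174 such windows around the 20 promoters were called with dTAG and 0.575% with dTAG+I-BET. The window of LLPH nearly coincides with the SMC1A window at its start and had the lowest adjusted p of the 5, 0.326 with dTAG. TMBIM4, which encodes a Golgi protein that inhibits apoptosis, held 145, 176 and 192 per kb in dTAG libraries, 132, 137 and 156 in dTAG+I-BET libraries and 146, 99.5 and 151 in DMSO libraries. The window of ENSG00000228144 shares its start with TMBIM4 and has the same values. The groups overlapped, with log2 differences of 0.39 (95% interval -0.06 to 0.83) and 0.12 (-0.32 to 0.56).

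IRAK3, an inhibitor of Toll-like receptor signaling, held 129, 107 and 114 per kb in dTAG libraries, 90.8, 92.5 and 76.2 in dTAG+I-BET libraries and 141, 88.4 and 103 in DMSO libraries. HELB, a DNA helicase, held 88.4, 122 and 51 per kb in dTAG libraries, 56.8, 92.5 and 60.1 in dTAG+I-BET libraries and 34.1, 53.1 and 73.5 in DMSO libraries. Treated and DMSO libraries overlapped at both. The log2 differences from DMSO were 0.09 and -0.33 at IRAK3 and 0.67 (SE 0.33) and 0.41 (SE 0.33) at HELB. The windows held 7 to 121 interactions per library.

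Close to the promoter treated and DMSO libraries overlapped on both sides. Within 10 kb, the upstream side held 3635, 3464 and 2509 per kb in dTAG libraries, 3297, 3189 and 3553 in dTAG+I-BET libraries and 3509, 3139 and 3381 in DMSO libraries. The downstream side within 10 kb held 3619, 3779 and 4806 per kb in dTAG libraries, 3691, 3543 and 3782 in dTAG+I-BET libraries and 3649.9, 3564 and 3249 in DMSO libraries. Only dTAG replicate 3 departed from the rest, being lowest upstream and highest downstream. Sequence within 10 kb took 7.62, 7.6 and 7.72% of the chromosome's signal in dTAG libraries, 7.34, 7.08 and 7.69% in dTAG+I-BET libraries and 7.5, 7.04 and 6.98% in DMSO libraries, and sequence from 10 to 500 kb 55.5, 55.2 and 47.1%, 56.1, 56.8 and 57.4% and 54.3, 52.4 and 53%. The gene body from 10 kb on took 13, 12.5 and 10.9% in dTAG libraries, 13.8, 14 and 14.4% in dTAG+I-BET libraries and 6.5, 6.47 and 8.06% in DMSO libraries.

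Past the window examined, from 500 to 1000 kb, the upstream side held 109, 102 and 108 per kb in dTAG libraries, 101, 95.9 and 106 in dTAG+I-BET libraries and 129.6, 119.6 and 128 in DMSO libraries, and treated libraries were again below DMSO. The downstream side at this distance held 20.2, 20.2 and 26 per kb in dTAG libraries, 18.3, 19.9 and 18.2 in dTAG+I-BET libraries and 16.3, 15.6 and 25.1 in DMSO libraries, with overlap. These far sums were not tested.

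Adding I-BET to dTAG ligand made no called difference at HMGA2. The side balance differed between dTAG+I-BET and dTAG by -0.04 (SE 0.15, 95% interval -0.37 to 0.30; limma, adjusted p 0.899). The fit pools the spread of all 3 groups, so this interval also rests on the DMSO libraries, which varied most. The SD of the side balance was 0.138 in dTAG, 0.00291 in dTAG+I-BET and 0.344 in DMSO libraries. None of the 98 HMGA2 bins was called by limma, or by edgeR on the recovered interactions, 7 had an unadjusted p under 0.05, and the share called over all 1960 bins was 0%. Among the HMGA2 bins, 11 tied at the smallest adjusted p, 0.713. The one with the lowest unadjusted p lay 20 to 30 kb upstream, with 1692, 1721 and 1841 per kb in dTAG+I-BET libraries and 1542, 1512 and 895 in dTAG libraries. The groups did not overlap there, and dTAG replicate 3 lay far below the other dTAG libraries. The gene body was higher in every dTAG+I-BET library than in every dTAG library, by 0.22 (95% interval -0.03 to 0.47; adjusted p 0.468), and so was the mirrored window, by 0.26 (-0.03 to 0.55; adjusted p 0.468). Among the bands the largest difference was 10 to 50 kb upstream, 0.38 (0.02 to 0.75; adjusted p 0.595). The intervals reach up to 0.47 in the gene body, so the absence of calls does not show that the treatments gave equal contacts. Without dTAG replicate 3 and DMSO replicate 3, 2 of the 6 regions were called.

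Set beside the other promoters, HMGA2 had the lowest side balance shift of the 20 in both contrasts with DMSO. In DMSO cells its upstream excess, 1.69 ± 0.34 on the log2 scale (SD, n = 3), was about that of ERRFI1, 1.68, the next in order, whose shift was -0.11 with dTAG and -0.15 with dTAG+I-BET. With dTAG, the shifts nearest to that of HMGA2 were those of MYC, the gene of an oncogenic transcription factor, at -0.59 (SE 0.08, adjusted p 0.00054) with dTAG and -0.53 (SE 0.08, adjusted p 0.0008) with dTAG+I-BET, and of DCBLD2, the gene of a transmembrane protein, at -0.47 (SE 0.12, adjusted p 0.0137) and -0.37 (SE 0.12, adjusted p 0.0333). With dTAG+I-BET, KRR1, a ribosome biogenesis gene, lay between MYC and DCBLD2, at -0.33 (SE 0.04, adjusted p 0.00054) with dTAG and -0.43 (SE 0.04, adjusted p 6.7e-05) with dTAG+I-BET. VTI1A, a vesicle transport gene, was at the other end, at 0.01 (SE 0.06, adjusted p 0.903) and 0.16 (SE 0.06, adjusted p 0.0401). The other 19 promoters had a median shift of -0.17 with dTAG and -0.16 with dTAG+I-BET. Tested as the side balance of HMGA2 minus the mean of the other 19 in the same library, a comparison added after the data were seen, the difference from DMSO was -0.78 with dTAG (SE 0.12, 95% interval -1.05 to -0.52; limma, adjusted p 0.000643) and -0.83 with dTAG+I-BET (SE 0.12, 95% interval -1.10 to -0.57; adjusted p 0.000171). The exact permutation test of the libraries gave p = 0.1 for each. Values of the 20 promoters in this comparison depend on one another, because each subtracts the mean of the others.

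**Figure D4:**
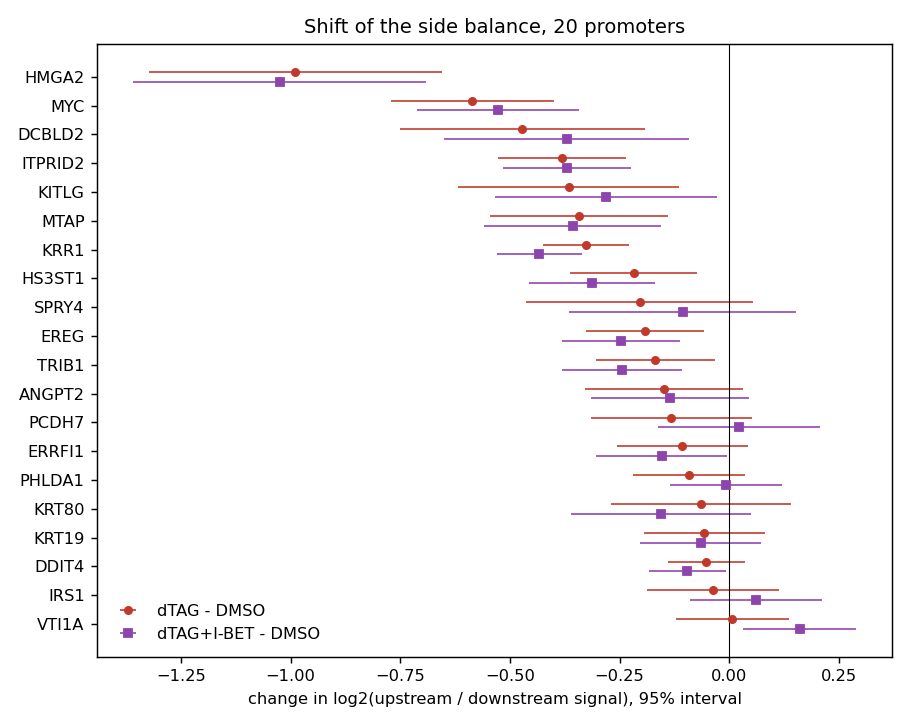
Change from DMSO in the log2 ratio of upstream to downstream signal (x axis) at the 20 promoters (y axis, ordered by the dTAG shift), with 95% intervals from limma. Red circles are dTAG and purple squares dTAG+I-BET; HMGA2 lies lowest, at -0.99 and -1.03, and most other promoters lie between it and 0.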

How the data were processed

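Capture-C contacts of the HMGA2 promoter were taken from 9 libraries. Per the paper's methods, the authors digested chromatin with DpnII, captured promoters with oligonucleotides and counted interactions per fragment with CapCruncher on hg38; bcl2fastq 2.17 is named in the submitters' processing notes. The deposited signal is interactions per fragment, scaled by the authors per viewpoint and library. All values (100%, tolerance 0.01) were whole multiples of 1 interaction, so counts were recovered. The deposited columns number replicates with unexplained letters, and the paper calls them biological replicates; were they technical, p-values would measure only the spread between such libraries.

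Fragments were assigned by midpoint (coordinates 1-based, genes from GENCODE 44), and sequence within 10 kb of the start was left out of sides, regions, bands and bins because of its steep decay. SMC1A and promoter windows were kept if their midpoint lay beyond 10 kb, so the SMC1A window nearest the start reaches inside it. limma 3.58.1 (R 4.3.3) was fitted to log2(signal per kb + 1) of all 9 libraries, with Benjamini-Hochberg adjustment over the regions, bands, windows or bins of all 20 promoters; bins needed a mean of 2 per kb, and a call an adjusted p under 0.05. SMC1A site positions came from the study's site list. edgeR 4.0.16 on recovered interactions called 53 of 1960 bins with dTAG and 102 with dTAG+I-BET, limma 29 and 96. Summaries and plots were made in Python 3.11.15 (pandas 2.3.3, numpy 2.4.6, scipy 1.17.1, matplotlib 3.10.9), and the fits were tested on simulated data.

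Named with values were both sides, the gene body, its mirrored window and the sequence beyond the gene, every band, SMC1A window and neighboring protein-coding gene, up to 5 increases and 5 decreases among called bins, and the promoters most like HMGA2 or at the ends of the range. The members, lists and tests were chosen with earlier results of these data known. Alternatives were each library left out, a replicate block, the 2 groups alone, equal totals from 10 to 1000 kb, other pseudocounts, limits, bins and windows, bin filters and edgeR.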

Additional observations from a re-analysis of the deposited data

How the results depend on the processing

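The side balance kept its direction and its call in both contrasts with DMSO under every alternative run, at -1.19 to -0.87 with dTAG and -1.22 to -0.90 with dTAG+I-BET. Deviations of same-numbered libraries correlated by -0.0638 to 0.233 and those of differently numbered ones by -0.232 to 0.159. The highest value, 0.233, was between dTAG replicate 3 and DMSO replicate 3. With DMSO replicates 1 and 2, dTAG replicate 3 gave -0.145 and -0.128. A pairing by number was therefore neither shown nor excluded. In this balanced design a replicate block cannot change a group difference, and the side balance difference stayed at -0.99 with dTAG. With the block 24 bins were called with dTAG, instead of 15. Leaving out libraries moved counts of calls. With dTAG there were 2 to 6 called regions, 2 to 11 bands, 13 to 39 bins and 1 to 5 SMC1A windows, and with dTAG+I-BET 2 to 5 regions, 3 to 9 bands, 15 to 50 bins and 1 to 9 windows; the upper ends mostly lacked both replicates numbered 3, a setting added after the data were seen. In that setting the spread was pooled over promoters and p-values were very small, so the larger counts are not stronger evidence. With the 2 groups alone 2 regions, 2 bands and 1 window were called with dTAG. Rescaling to equal totals gave 32 bins and 8 windows with dTAG, edgeR with TMM 33 bins and edgeR on recovered interactions 7 windows. Windows of 2.5 and 10 kb on each side gave 1 and 5 calls with dTAG, and bins of 25 kb 15 with dTAG+I-BET. Between dTAG+I-BET and dTAG, 0 to 2 regions were called as libraries were left out.

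Signs turned only in values that were not called. Between dTAG+I-BET and dTAG the side balance ranged from -0.11 to 0.0127 as libraries were left out, and relative to the other promoters from -0.12 to -0.0064, where without both replicates numbered 3 it was called (adjusted p 0.00673). The mirrored window of the gene body for dTAG+I-BET was -0.0275 after rescaling and ranged from -0.0544 to 0.0889 as libraries were left out, and the band 50 to 100 kb upstream was -0.0441 and ranged from -0.0997 to 0.0831. Left-out libraries also turned the band 10 to 50 kb upstream for dTAG (-0.32 to 0.0431), the band 400 to 500 kb downstream for dTAG+I-BET (-0.0562 to 0.24), IRAK3 for dTAG (-0.0528 to 0.28), and TMBIM4 and ENSG00000228144 for dTAG+I-BET (-0.0684 to 0.23). The cause of these changes was not tested.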
